A study of Arabidopsis thaliana with 23 samples.

Results

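The chloroplast genome of Arabidopsis, named ChrC in the deposited files, is 154478 bp long and is divided there into 1545 windows of 100 bp. All ChrC windows were taken by chromosome name alone, and 1454 of them held at least 1 read of 21 to 24 nt in at least 1 library, out of 731896 windows with reads over the whole genome. Small RNAs were sequenced from total RNA of Col-0 inflorescences in 23 libraries, which the labels divide into batches A and B. The first batch, A, holds zmp-2 (3 libraries), nrpd1-3 (2), zmp-2 carrying a ZMP-YFP transgene (3) and wild type (WT, 3). Batch B holds zmp-2 nrpd1-3 (3), zmp-2 shh1-1 (3), zmp-2 (3) and WT (3). The alleles zmp-2, nrpd1-3 and shh1-1 are T-DNA insertions, ZMP-YFP was expressed from the ZMP promoter in 1 transgenic line, and both double mutants carry zmp-2, as does the zmp-2 group they are set against. All comparisons were made within a batch. The nrpd1-3, zmp-2 and ZMP-YFP zmp-2 groups of batch A share the same WT libraries, and both double mutants share the same zmp-2 libraries. By their titles and the study's methods, the libraries of a group are biological replicates.

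RNA polymerase IV (Pol IV) transcribes nuclear repeats into the precursors of 24-nt small interfering RNAs, NRPD1 is its largest subunit, SHH1 brings it to chromatin, and ZMP is a nuclear protein that binds NRPD1. Chloroplasts hold none of this machinery and no Dicer enzyme. Their genes are transcribed as long precursors, which are cut and trimmed by ribonucleases until a bound protein blocks the way. Many of these proteins belong to the pentatricopeptide repeat (PPR) family, and the stretch of RNA that such a protein covers can survive as a short fragment near a transcript end. The 2 copies of the inverted repeat carry the rRNA genes and several protein genes, among them ndhB, a subunit of the NDH complex that carries electrons around photosystem I.

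Each library held between 32815 and 236325 chloroplast reads (median 62062) in 891 to 1348 windows. Values are given as RPM, reads per M (mega) reads mapped to the genome, and as RPMR, which sets them against the same number of 45S rRNA reads. The 45S reads numbered 5.13 to 5.57 per mapped read in zmp-2 nrpd1-3 libraries and 0.0432 to 0.429 in the other 20, so the scale on which a zmp-2 nrpd1-3 level is read matters more than for any other group. Reads that match rRNA and tRNA were removed before mapping, and the insides of the rrn23S genes held 0 reads in 28 windows of 1 copy and 27 of the other. Windows of rRNA and tRNA genes therefore show only what that removal left. The T-DNA alleles cannot be checked by the level of their own mRNA in these libraries. The labels of the NRPD1 mutants were checked instead by the nuclear 24-nt share, which was 9.68 to 10.1% of nuclear reads in nrpd1-3 and 10.6 to 11.4% in zmp-2 nrpd1-3, against 53.1 to 63.4% in the other 18 libraries.

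A few sequences held most of the chloroplast reads. The following 3 are printed because the levels and lengths described next turn on them. They come from the RefSeq assembly TAIR10.1 and each is given from 5′ to 3′ on the strand of its gene. The first spans the start of ndhB (chrC:97149-97194, minus strand, and again in the other inverted repeat), with the first coding bases in capitals. The second lies before the 23S rRNA gene rrn23S (chrC:104601-104700, plus strand), with capitals for the 48 bases that both inverted repeat windows share. The third runs across the end of the 5S rRNA gene (chrC:108049-108100, plus strand), with capitals for the bases inside the gene, as placed by its annotated copy in the other repeat.
ndhB start: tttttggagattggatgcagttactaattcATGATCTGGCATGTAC
rrn23S upstream: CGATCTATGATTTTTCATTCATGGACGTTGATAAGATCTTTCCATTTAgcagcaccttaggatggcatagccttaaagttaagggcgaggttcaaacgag
rrn5S end: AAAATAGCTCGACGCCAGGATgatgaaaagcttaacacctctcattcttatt

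The windows at the start of ndhB were the most abundant of the chloroplast. The window at chrC:97101-97200 held 421331 reads over all libraries and its counterpart at chrC:141401-141500 held 419690, and each averaged 24.3% of the chloroplast reads of a library. The 2 windows overlap as repeat copies over only 52 bases (chrC:97149-97200 and chrC:141449-141500), which hold the printed start of ndhB. Between 49.7 and 50.7% of the reads of a library fell in the first copy, a balance set by how reads from identical copies were assigned. The windows on either side were nearly empty, with 10 reads at chrC:97001-97100 and 14 at chrC:97201-97300. Of the reads at the first window 83.0% were 22 nt long. In Arabidopsis, the PPR protein CRR2 is needed for the cut between rps7 and ndhB, which releases this 5′ end.

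The next windows lay upstream of rrn23S, the large ribosomal RNA. Those at chrC:134001-134100 (189650 reads) and chrC:104601-104700 (189166 reads) averaged 11.03 and 11.01% of chloroplast reads. Their shared stretch, in capitals above, ends 43 bases before the annotated rrn23S start. There 24 nt was the main length, with 78.8% of the reads. Thus the most abundant sites of the chloroplast differed in length by 2 nt, ndhB at 22 nt and the rrn23S leader at 24 nt, and each main length was the same in 23 of 23 libraries.

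Outside the inverted repeats, the window 12 bp before petL, a small subunit of the cytochrome b6f complex, held 69878 reads (chrC:65601-65700, 4.19% of chloroplast reads). It mixed 52.4% of 23 nt with 39.6% of 22 nt, and its neighbours held 18 and 76 reads. A window inside matK, the maturase that splices plastid introns, held 26043 reads (chrC:3301-3400, 1.61%), of which 89.0% were 24 nt. The window at chrC:1-100 by the tRNA-His gene had 87.2% of 22 nt. The atpH start window (chrC:13501-13600), at a subunit of the ATP synthase ring where PPR10 binds in maize, had 88.6% of 23 nt. The window at the end of psbH (chrC:74701-74800), a photosystem II subunit, had 79.0% of 21 nt, and that in ndhK, a further NDH subunit (chrC:49601-49700), had 93.2% of 24 nt. The same length was the most common in 23 of 23 libraries for matK, tRNA-His, atpH, psbH and ndhK as well. Other sites varied more, as the main length was the same in 19 libraries for petL and in 16 and 14 for the windows at the end of the 5S rRNA gene.

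Over the 79 windows with at least 1000 reads, the main length was 21 nt in 30, 22 nt in 20, 23 nt in 7 and 24 nt in 22. More than 75% of the reads had 1 length in 1, 3, 1 and 8 of these windows, and the main length was the same in at least 20 libraries in 12, 10, 4 and 12 of them, in the same order of lengths. Of the 40 windows with most reads 34 (85%) lay within 100 bp of a gene end, as did 565 of all 1545 windows (36.6%). Windows with over 10% of their 24-mers also present in nuclear or mitochondrial sequence, searched in the same orientation only, numbered 177. Copies in the opposite orientation were not counted, so 177 is a lower bound. They held 10.9 to 18.1% of the chloroplast reads of a library, and the genome of origin of such reads cannot be told apart.

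The size profile of the chloroplast followed these few sites. Reads of 22 nt made up 38.8 to 59.6% of chloroplast reads (median 50.3%), those of 24 nt 23.1 to 41.4% (30.5%), those of 23 nt 8.46 to 17.0% (10.9%) and those of 21 nt 5.30 to 14.9% (6.48%). The most common length was 22 nt in 22 libraries and 24 nt in 1, a zmp-2 library of batch A. Without the 4 windows at ndhB and before rrn23S, the profile was nearly even, with 17.9 to 27.0% of 21 nt, 24.7 to 30.8% of 22 nt, 22.4 to 28.5% of 23 nt and 21.98 to 28.1% of 24 nt. In the 6 WT libraries the 24-nt share was 30.2 percentage points lower in the chloroplast than in the nucleus (exact two-sided sign-flip permutation test, p = 0.03125, the smallest that 6 libraries allow). The share was lower in the chloroplast in 18 of the 18 libraries with NRPD1 and higher in the 5 without it.

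**Figure D1:**
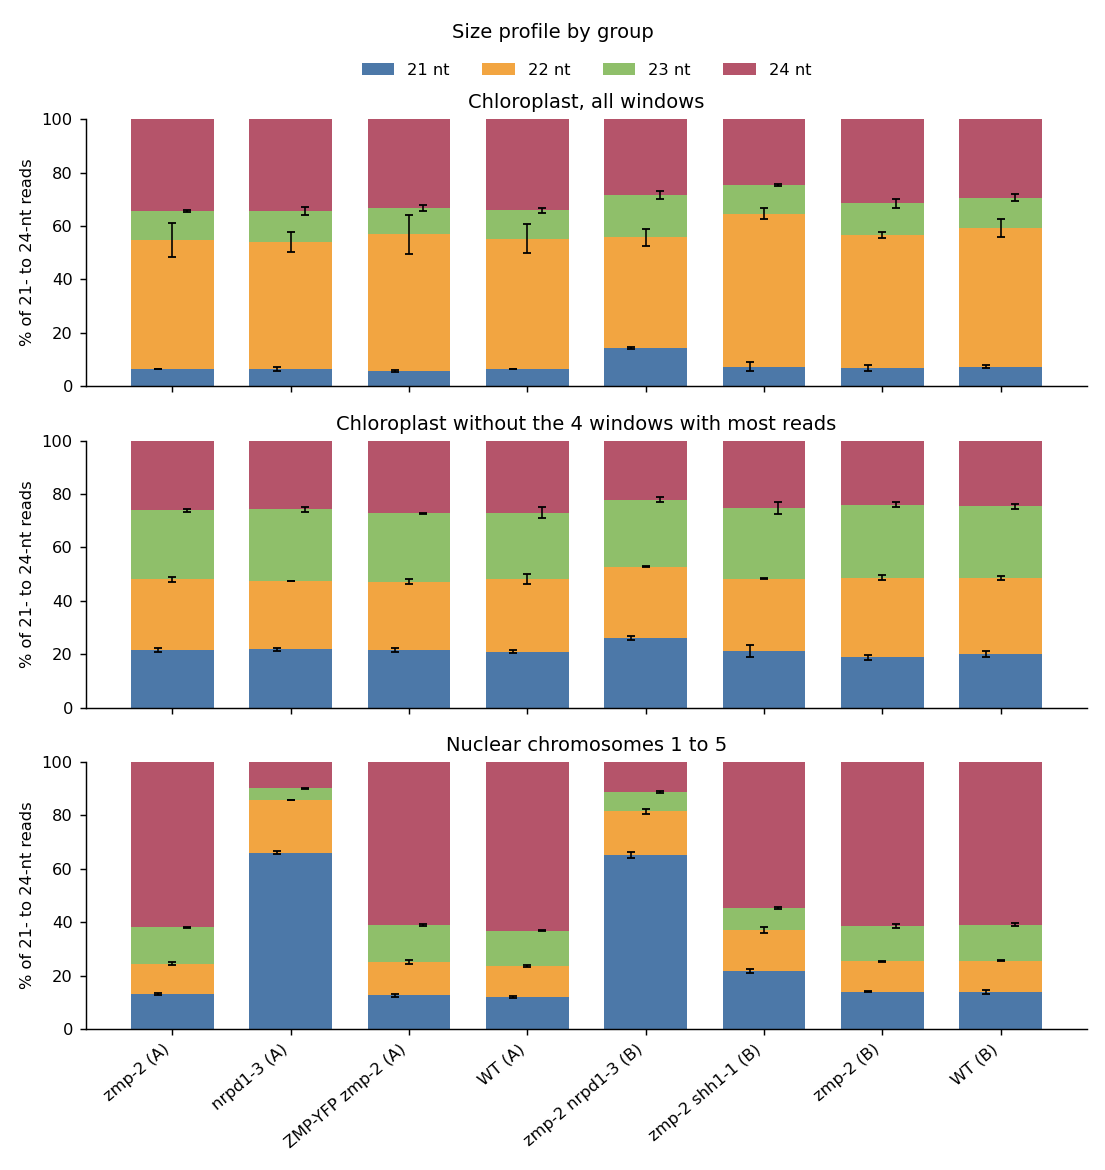
Mean share (%) of 21, 22, 23 and 24-nt reads in each group as stacked bars, for all chloroplast windows, for the chloroplast without its 4 windows with most reads, and for the nuclear chromosomes, with SD bars at the upper edge of the 21, 22 and 23-nt segments. The 22-nt segment leads in the chloroplast, the 4 lengths are nearly even without the 4 windows, and the nuclear 24-nt segment is small only in nrpd1-3 and zmp-2 nrpd1-3.

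In nrpd1-3 the chloroplast 24-nt share lay within the range of WT, while the nuclear share was far lower. It was 33.3 and 35.5% in nrpd1-3, against 29.1, 35.8 and 37.6% in WT of batch A, where the nuclear 24-nt share averaged 9.91% in nrpd1-3 and 63.1% in WT. The zmp-2 share averaged 34.5% ± 5.99 (SD, n = 3) in batch A, with WT at 34.2% ± 4.44 (n = 3), and 31.5% ± 1.74 in batch B, with WT at 29.4% ± 1.67 (n = 3 each). ZMP-YFP zmp-2 had 33.4% ± 5.93 (n = 3). The ranges of these pairs overlapped, with exact two-sided permutation p of 0.3 to 1. The 24-nt share was lower in both double mutants of batch B, without overlap. It was 26.9, 29.1 and 29.3% in zmp-2 nrpd1-3 and 23.1, 23.4 and 27.5% in zmp-2 shh1-1, against 29.6, 31.9 and 33.0% in zmp-2. Both exact two-sided permutation tests gave p = 0.1, the smallest that 3 libraries against 3 allow (0.3 after adjustment over 6 comparisons). The zmp-2 shh1-1 minus zmp-2 difference was -6.82 points, and without the 4 windows it changed sign, to 1.23 points. Wilson 95% intervals of the 24-nt share were at most 0.987 points wide, narrower than the spread between replicates, and they cover counting error only.

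The inverted repeats, at chrC:84171-110434 and chrC:128215-154478, held 525 of the 1545 windows and 66.9 to 85.9% of chloroplast reads (median 81.7%). The 4 windows alone held 45.1 to 80.1%. Reads were least concentrated in zmp-2 nrpd1-3, where 167 to 199 windows were needed to reach 90% of the reads, against 21 to 57 in the other libraries. The inverted repeat share was 66.9, 68.8 and 70.5% in zmp-2 nrpd1-3, against 71.4, 81.0 and 82.6% in zmp-2, without overlap (exact two-sided permutation p = 0.1, the smallest possible; adjusted p = 0.3). Without the 4 windows that difference ran the other way, at 13.9 points higher in zmp-2 nrpd1-3. ZMP-YFP zmp-2 averaged 84.2% ± 1.46, with WT of batch A at 82.2% ± 0.899 (n = 3 each), also without overlap (exact permutation p = 0.1; adjusted p = 0.3), and this difference was -1.82 points without the 4 windows. The other 3 comparisons with zmp-2 or nrpd1-3 alone and the zmp-2 shh1-1 comparison overlapped between groups.

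The level of chloroplast reads depended on the scale in the NRPD1 mutants. In RPM, it was 54601 and 64214 in nrpd1-3, against 8666, 9431 and 11126 in WT, 6.11-fold higher without overlap (exact two-sided permutation p = 0.2, the smallest that 2 libraries against 3 allow). It was 57516, 57627 and 63096 RPM in zmp-2 nrpd1-3, against 14219, 15443 and 16899 RPM in zmp-2, 3.83-fold higher without overlap (exact permutation p = 0.1, the smallest possible). These mutants lack most nuclear 24-nt reads, and chloroplast reads made up 10.5 and 13.1% of all 21 to 24-nt reads in nrpd1-3 and 12.8 to 14.3% in zmp-2 nrpd1-3, against 1.01 to 2.82% elsewhere. In bulk tissue, a change in the number of cells or plastids and a change in RNA per cell cannot be told apart. Over both batches, the rise with loss of NRPD1 was 2.28 on the log2 RPM scale, 2.61 in batch A and 1.94 in batch B (permutation within batches, p = 0.01, the smallest possible over these 11 libraries).

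On the RPMR scale the 2 NRPD1 comparisons gave different values. Levels were 174543 and 220800 RPMR in nrpd1-3, against 165336, 185275 and 257502 RPMR in WT, which overlapped (log2 difference -0.02, exact permutation p = 1). They were 10323, 11236 and 12128 RPMR in zmp-2 nrpd1-3, against 85373, 115997 and 135000 RPMR in zmp-2, a log2 difference of -3.30 without overlap (exact permutation p = 0.1, the smallest possible; adjusted p = 0.4). Over both batches, the effect of NRPD1 loss was -1.66 on the log2 RPMR scale (permutation within batches, p = 0.05), opposite in sign to that in RPM. The difference between the effects of the 2 batches was 3.28 (permutation within batches, p = 0.06), and in it the zmp-2 background and the batch cannot be told apart. The 45S reads per mapped read stood at 5.30 ± 0.237 in zmp-2 nrpd1-3 and averaged 0.142 in zmp-2, and their part in the RPMR result was not tested. Set against reads of miRNA windows, whose level does not depend on Pol IV, chloroplast reads numbered 340 ± 36.4 per 1000 miRNA reads in zmp-2 nrpd1-3 and 295 ± 27.4 in zmp-2. That measure was 267 ± 53.9 in nrpd1-3 (n = 2) and 217 ± 41.7 in WT of batch A. The mitochondrial reads moved less in RPM, with 12.8 and 13.1 chloroplast reads per mitochondrial read in nrpd1-3 and 14.6 to 14.9 in zmp-2 nrpd1-3, against 4.89 to 10.2 in the libraries with NRPD1.

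In zmp-2, chloroplast reads were higher than in WT in RPM in batch B, while batch A overlapped. In batch A, zmp-2 averaged 11096 ± 1061 RPM and WT 9741 ± 1259 RPM (n = 3 each), which overlapped (log2 difference 0.19, exact permutation p = 0.3). In batch B, levels of 14219, 15443 and 16899 RPM in zmp-2 lay above the 9712, 10069 and 10511 RPM of WT, 1.53-fold higher without overlap (exact permutation p = 0.1, the smallest possible). Over both batches the zmp-2 effect was 0.40 on the log2 RPM scale (permutation within batches, p = 0.015), and a difference between the batches was not shown by the permutation test (p = 0.18). In RPMR the combined effect was 0.15 (permutation within batches, p = 0.435), with -0.08 in batch A and 0.38 in batch B. ZMP-YFP zmp-2 averaged 11116 ± 1151 RPM and 182707 ± 11273 RPMR, overlapping WT on both scales. Levels in zmp-2 shh1-1 were 19128 ± 3762 RPM, with zmp-2 at 15520 ± 1341 RPM, and 69499 ± 30968 RPMR, with zmp-2 at 112123 ± 25039 RPMR, and both overlapped (exact permutation p = 0.3 and 0.2).

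**Figure D2:**
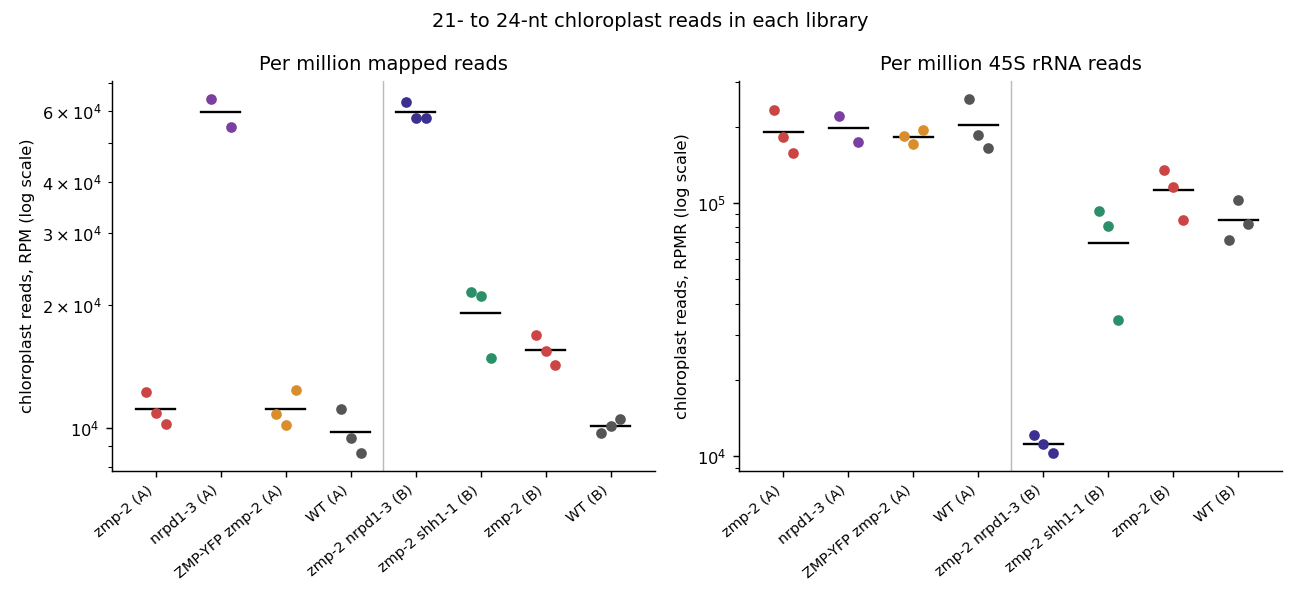
Chloroplast reads per library (points) in RPM and in RPMR, on log axes, by group and batch, with group means as lines. In RPM the nrpd1-3 and zmp-2 nrpd1-3 libraries lie above all others, between 54601 and 64214, while in RPMR the 3 zmp-2 nrpd1-3 libraries lie below all others, between 10323 and 12128.

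The single sites did not keep their proportions in zmp-2 nrpd1-3. The ndhB start took 36.4, 39.96 and 44.5% of chloroplast reads in zmp-2 nrpd1-3, against 40.8, 45.7 and 46.7% in zmp-2, which overlapped. Its lengths changed more than its share. Reads of 24 nt made up 25.6, 29.8 and 31.0% of the ndhB reads in zmp-2 nrpd1-3 and 5.70 to 8.38% in zmp-2, and reads of 22 nt averaged 66.6 and 90.5% in the same 2 groups. In nrpd1-3 the 24-nt part of ndhB averaged 16.7%, with WT of batch A at 15.0%.

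The rrn23S leader took a smaller share. It held 6.29, 6.65 and 8.62% of chloroplast reads in zmp-2 nrpd1-3, against 21.6, 27.9 and 29.4% in zmp-2, well outside the spread of either group. Its RPM hardly differed, at 4260 ± 667 in zmp-2 nrpd1-3 and 4115 ± 961 in zmp-2 (n = 3 each), while with 45S library sizes its windows had log2 fold changes of -5.25 and -5.22 and, relative to the other chloroplast windows, -3.10 and -3.07, all called lower. In nrpd1-3 it held 26.4%, with WT at 25.1%. The petL window showed the same order, with 1.47, 1.69 and 1.84% in zmp-2 nrpd1-3, against 5.66, 5.69 and 6.13% in zmp-2. It averaged 5.84% in zmp-2 shh1-1 and, in batch A, 4.32% in nrpd1-3 and 3.78% in WT.

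The end of the 5S rRNA gene went the other way. Its pair of windows held 7.06, 7.75 and 8.28% of chloroplast reads in zmp-2 nrpd1-3, against 0.398, 0.433 and 0.457% in zmp-2, with no overlap. Their level was 4560 ± 181 RPM in zmp-2 nrpd1-3 and 66.6 ± 6.07 RPM in zmp-2. In nrpd1-3 the share averaged 0.476%, with WT of batch A at 0.416%, so this accumulation was seen in the double mutant libraries and not at that size in nrpd1-3. By edgeR with the 45S library size the 5S end windows were not called in zmp-2 nrpd1-3 (log2 fold change 0.88 at chrC:108001-108100, Benjamini-Hochberg adjusted p = 0.012), whereas with all mapped reads as library size the log2 fold change was 6.13. The 45S rRNA reads of these libraries rose as well, and the part of rRNA fragments in this result was not tested.

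**Figure D3:**
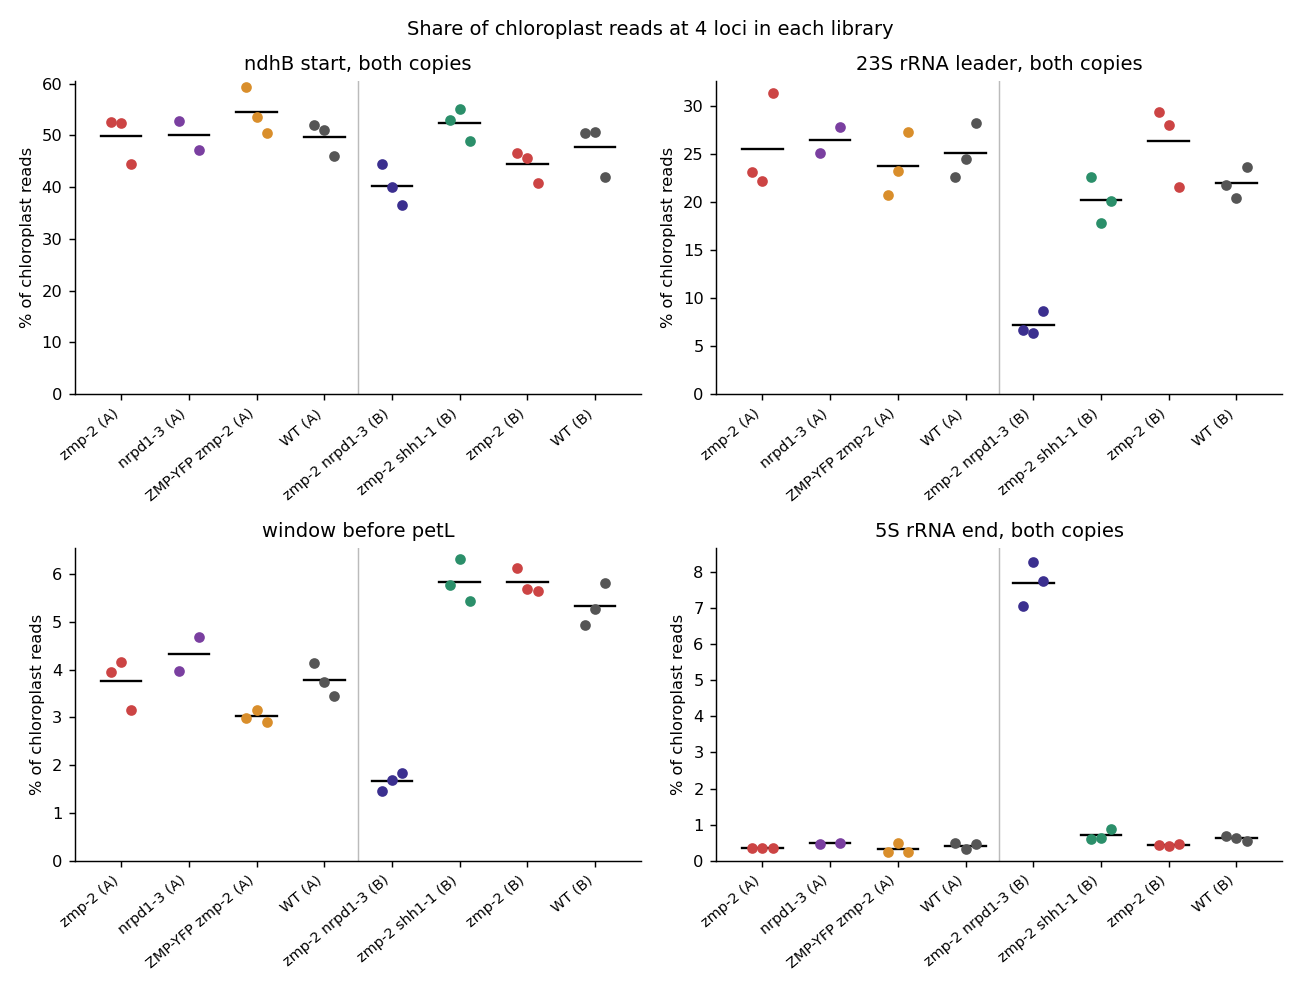
Share (%) of chloroplast reads in each library (points) with group means (lines) for the ndhB start, the rrn23S leader, the window before petL and the end of the 5S rRNA gene. The 3 zmp-2 nrpd1-3 libraries stand apart in the last 3 panels, low for the rrn23S leader (6.29 to 8.62%) and petL (1.47 to 1.84%) and high for the 5S end (7.06 to 8.28%).

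Differential windows were called with edgeR's quasi-likelihood test over all genome windows with at least 10 counts, with the 45S reads as library size, and called where they changed 2-fold or more with a Benjamini-Hochberg adjusted p up to 0.05. Loss of ZMP alone gave no chloroplast call. In zmp-2 against WT of batch A, 794 chloroplast windows were tested, and 0 were lower and 0 higher, where 5.62% of all windows were lower and 2.39% higher. At an unadjusted p under 0.05 there were 31, and DESeq2 called 0. In batch B, 641 were tested with 0 lower and 0 higher, against 5.55 and 1.6% of all windows, with 32 at an unadjusted p under 0.05 and 2 higher by DESeq2. ZMP-YFP zmp-2 against WT gave 0 of 697 in either direction, against 0.33% lower and 0.121% higher of all windows, with 34 at an unadjusted p under 0.05 and 1 lower by DESeq2. In these 3 comparisons the median log2 fold change of the chloroplast windows was -0.05, 0.12 and -0.23. The test of the difference between the zmp-2 effects of the batches called 0 of 1046 chloroplast windows by edgeR, with 53 at an unadjusted p under 0.05 (0 and 66 with all mapped reads). DESeq2 was not run on it.

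The chloroplast stood apart from the nuclear loss in nrpd1-3. Of 880 chloroplast windows tested, 21 were lower (2.39%) and 23 higher (2.61%), where 96.0% of all windows were lower and 0.319% higher, and the median log2 fold change was 0.00 for the chloroplast and -6.59 for all windows. The number called higher was 56 without the first WT library and 5 without the first nrpd1-3 library, a fit that takes its spread from WT alone and assumes the lone nrpd1-3 library to vary alike. With all mapped reads as library size, 1 chloroplast window was lower and 780 were higher, where 85.2% of all windows were lower and 3.43% higher, and the chloroplast median was 2.59. In zmp-2 nrpd1-3 against zmp-2, 514 of 967 chloroplast windows were lower and 6 higher, where 93.9% of all windows were lower and 0.111% higher, with medians of -1.88 for the chloroplast and -8.61 for all windows. With all mapped reads these became 5 lower and 852 higher, where 85.7% of all windows were lower and 7.84% higher, with a chloroplast median of 3.19. The direction of nearly all chloroplast windows in zmp-2 nrpd1-3 thus depended on the library size.

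In zmp-2 shh1-1 against zmp-2, 25 of 778 chloroplast windows were lower and 0 higher by edgeR, where 27.5% of all windows were lower and 0.291% higher. The chloroplast share of lower windows, 3.21%, was far under that of all windows. DESeq2 called 2 lower and 9 higher, 51 windows had an unadjusted p under 0.05, and 14 were lower without the zmp-2 library numbered 3. With all mapped reads as library size, 4 were lower and 27 higher, where 18.0% of all windows were lower and 5.18% higher.

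**Figure D4:**
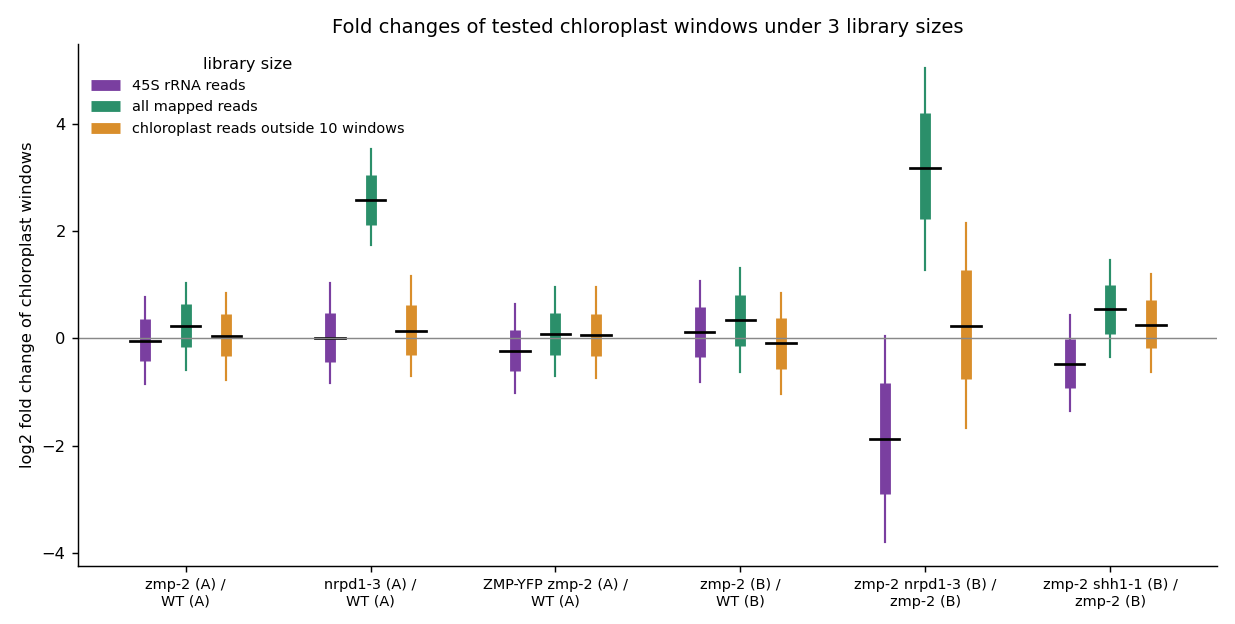
Median (black line), quartiles (box) and range from the 10th to the 90th percentile (line) of the log2 fold change of tested chloroplast windows in each comparison, under library sizes from 45S reads, all mapped reads and chloroplast reads outside the 10 windows with most reads. In zmp-2 nrpd1-3 the median is -1.88 with 45S reads, 3.19 with mapped reads and 0.23 with chloroplast reads.

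To describe how windows moved relative to other chloroplast windows, library sizes were also taken from the chloroplast reads outside the 10 windows with most reads, a choice made after seeing the data. In zmp-2 nrpd1-3 against zmp-2, 118 of 967 windows were then lower (12.2%) and 187 higher (19.3%), where 92.2% of all windows were lower and 3.02% higher. In nrpd1-3 against WT, 11 of 880 were lower and 31 higher, where 95.9% of all windows were lower and 0.357% higher. The difference between the 2 NRPD1 comparisons was not tested window by window, and the zmp-2 background cannot be told apart from the batch in it.

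On that scale, 19.3% of all chloroplast windows tested were higher in zmp-2 nrpd1-3, and the shares of the photosynthesis gene groups, which were not tested as groups, differed widely. All 15 tested windows of rbcL, the large subunit of the carbon-fixing enzyme Rubisco, were higher, with a median log2 fold change of 2.42 against 0.23 for the chloroplast. Of 77 photosystem II windows 49 were higher and 3 lower (median 1.48), and of 53 photosystem I windows 31 were higher and 0 lower (median 1.36). The ATP synthase had 19 higher and 3 lower of 54 (median 1.12), and the cytochrome b6f complex 9 higher and 0 lower of 32 (median 0.90). The NDH complex, also part of the light reactions, had 5 higher and 10 lower of 96 (median 0.01). Outside photosynthesis, the ribosomal protein genes had 14 higher and 7 lower of 102 (median 0.39), and the plastid-encoded RNA polymerase 2 higher and 6 lower of 46 (median -0.45). The remaining protein genes had 5 higher and 12 lower of 106 (median 0.01), and introns 12 higher and 9 lower of 106 (median 0.08). Among tRNA windows 2 were higher and 17 lower of 56 (median -0.52), and among intergenic windows 16 were higher and 48 lower of 211 (median -0.48). Windows of rRNA genes, as left by the removal of rRNA reads, had 8 higher and 3 lower of 14 (median 1.64). Outside photosynthesis, only rRNA windows thus exceeded the 19.3% of all chloroplast windows in their share of higher ones. The 14 rRNA windows include copies of the inverted repeat, so they are not 14 separate sites.

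As shares of the chloroplast reads outside the 4 windows, rbcL held 10.8% ± 0.38 in zmp-2 nrpd1-3 and 2.06% ± 0.466 in zmp-2, and photosystem II genes 17.0% ± 0.574 in zmp-2 nrpd1-3 and 7.89% ± 2.78 in zmp-2 (n = 3 each). Windows of rRNA genes, as left by the removal of rRNA reads, held 30.01% ± 1.13 in zmp-2 nrpd1-3 and 7.56% ± 0.229 in zmp-2. Intergenic windows held 12.8% ± 0.365 in zmp-2 nrpd1-3 and 43.6% ± 3.37 in zmp-2. The differences were larger than the SD of either group. The rRNA, rbcL and photosystem II shares were higher and the intergenic share lower in zmp-2 nrpd1-3. As these are shares of the same total, a rise in some windows lowers the share of the rest. The intergenic share includes the petL window. The rRNA share includes the 5S end pair, with 7.06 to 8.28% of all chloroplast reads in zmp-2 nrpd1-3. Both shares thus rest in part on single sites, and they were not recomputed without them. In nrpd1-3 against WT, relative to the other chloroplast windows, 3.52% of all chloroplast windows tested were higher and 1.25% lower. There 0 of 15 windows were called for rbcL (median -0.13) and 0 of 14 for rRNA (median -0.20). Photosystem II had 5 higher and 1 lower of 75 (median 0.18), and photosystem I 1 higher of 40 (median -0.28). With 45S library sizes, 53.2% of all chloroplast windows tested were lower in zmp-2 nrpd1-3. There rbcL had 0 called of 15, and 23 of 77 photosystem II windows were lower, as were 48 of 56 for tRNA. For NDH 51 of 96 were lower, near the share of all chloroplast windows.

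Both NRPD1 comparisons, which share no library, tested 785 windows in common. With 45S library sizes, 16 windows were lower in both, 76.2% of the 21 of nrpd1-3 and 3.11% of the 514 of zmp-2 nrpd1-3, where 59.5% of the common windows were lower in the second comparison. None was higher in both, of 23 in nrpd1-3 and 6 in zmp-2 nrpd1-3, where 0.764% of the common windows were higher in the second comparison. With so few calls, the lack of shared ones is not informative. Relative to the other chloroplast windows, 27.3% of the 11 lower in nrpd1-3 and 2.54% of the 118 lower in zmp-2 nrpd1-3 were lower in both, where 14.5% of the common windows were lower in the second comparison. Of the 31 higher in nrpd1-3, 16.1% were higher in both, as were 2.67% of the 187 of zmp-2 nrpd1-3, where 19.4% of the common windows were higher in the second. The 3 lower in both lay at atpH (chrC:13501-13600), at the end of psbH (chrC:74701-74800) and inside ycf1, which encodes a part of the protein import machinery (chrC:128301-128400). The atpH window overlapped between groups in reads, with 687 and 93 in nrpd1-3 and 45, 414 and 365 in WT (edgeR adjusted p = 0.0486), and with 45S library sizes its log2 fold change of -1.48 became -0.77, not called, without the second nrpd1-3 library. The 5 higher in both lay inside the photosystem II subunits psbK (chrC:7101-7200) and psbH (chrC:74501-74600), the photosystem I core protein psaA (chrC:41201-41300) and the ribosomal protein rps14 (chrC:36901-37000), and between genes 390 bp from psbM (chrC:29201-29300). These 8 were named after their values were seen.

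The psbH end had the smallest p of the lower windows of nrpd1-3. It had 247.6 and 256.3 RPMR in nrpd1-3 and 891 to 1053 RPMR in WT, with 265 and 179 reads in nrpd1-3 and 241, 260 and 250 in WT (log2 fold change -1.95, edgeR adjusted p = 2.27e-06). With all mapped reads the log2 fold change was 0.67, so the window fell relative to the 45S and to the other chloroplast reads, and not in RPM. In Arabidopsis the protein HCF107 binds the 5′ region of psbH, upstream of this window. The ycf1 window had 0 and 2 reads in nrpd1-3, against 56, 0 and 44 in WT (log2 fold change -6.52, adjusted p = 9.38e-05), and 1 of the WT libraries was as empty as the mutant ones. It lies in an inverted repeat, so the placement of reads between the identical copies can also affect these counts. The smallest p in the other direction were at tRNA genes. The window at chrC:8601-8700, by a tRNA-Gly gene, had 420 and 186 reads in nrpd1-3, against 42, 25 and 25 in WT (log2 fold change 1.47, adjusted p = 0.000221), and that at chrC:30501-30600, by tRNA-Glu, had a log2 fold change of 1.36 (adjusted p = 0.000813).

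In zmp-2 nrpd1-3 the windows with the smallest p among the lower ones lay between genes. The window between rps7 and ndhB (chrC:97301-97400), on the other side of the CRR2-dependent cut from the ndhB start, had 62, 63 and 73 reads in zmp-2 nrpd1-3, against 249, 251 and 123 in zmp-2 (log2 fold change -5.55, edgeR adjusted p = 2.57e-10). With all mapped reads its log2 fold change was -0.29. The window 194 bp from rpl32 (chrC:113801-113900) had 6, 9 and 11 reads in zmp-2 nrpd1-3, against 72, 113 and 203 in zmp-2 (log2 fold change -7.85, adjusted p = 2.85e-10), and it stayed lower with all mapped reads, at -2.71. Of the 6 windows called higher, 4 lay in or by the 16S rRNA gene or the tRNA-Ile gene behind it, 1 in atpF and 1 near rbcL. Those 4 overlap in pairs as copies of the inverted repeat, between which reads were divided, so they are not 4 separate sites. The 16S window at chrC:102401-102500 had 810, 1087 and 1261 reads in zmp-2 nrpd1-3, against 20, 16 and 12 in zmp-2 (log2 fold change 2.11, adjusted p = 1.17e-05). In nrpd1-3 it had 126 and 52 reads, against 32, 29 and 29 in WT.

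In zmp-2 shh1-1 the windows over the start of the 5S rRNA gene fell. The window at chrC:107901-108000 had 1, 2 and 93 reads in zmp-2 shh1-1, against 261, 270 and 214 in zmp-2 (log2 fold change -4.65, edgeR adjusted p = 2.69e-06), and its repeat copy at chrC:130601-130700 had 1, 0 and 93 reads in zmp-2 shh1-1, against 253, 299 and 197 in zmp-2 (log2 fold change -4.69). The neighbouring 5S end windows did not follow, with 0.612, 0.619 and 0.884% of chloroplast reads in zmp-2 shh1-1 and 0.398 to 0.457% in zmp-2. The 2 sets of windows abut, and 1 of the 3 zmp-2 shh1-1 libraries, with 93 reads in either copy, was much closer to zmp-2 than the other two. Without that library the log2 fold changes were -8.44 and -9.73. The window upstream of psbA, the D1 protein of photosystem II, also fell (chrC:201-300), with 81, 177 and 109 reads in zmp-2 shh1-1, against 214, 342 and 563 in zmp-2 (log2 fold change -3.07, adjusted p = 2.70e-06). The tRNA-His window at chrC:1-100 had 157, 313 and 173 reads in zmp-2 shh1-1, against 298, 432 and 977 in zmp-2 (log2 fold change -2.88, adjusted p = 1.32e-05), and it stayed lower with all mapped reads, at -1.96. Without the third zmp-2 library, the highest at both windows, the log2 fold changes were -2.50 at psbA and -2.07 at tRNA-His, still called.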

How the data were processed

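The authors trimmed adapters with their own script, dropped short reads, removed reads that match rRNA, tRNA and small nucleolar RNA with Bowtie (version 1.1.0), counting those of the 45S rRNA, and mapped the rest to TAIR10 with ShortStack without mismatches. A read was given to the 100-bp window of its 5′ end, and multi-mapping reads were assigned by the density of unique ones nearby, so reads of the identical inverted repeats cannot be placed in 1 copy. The authors deposited, for each window and length of 21 to 24 nt, the count, the RPM value and a score, RPMR. Each of the last 2 was found to be the count times 1 factor per library, from which the mapped and 45S reads were computed. Strand is not in the files.

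Windows were annotated with RefSeq TAIR10.1. Tests were edgeR (version 4.0.16, R version 4.3.3) quasi-likelihood fits with 45S reads as library size on windows with at least 10 counts, and exact two-sided permutation tests over libraries on log2 sums and on shares (Python 3.11.15, numpy 2.4.6, pandas 2.3.3, scipy 1.17.1). Sums were adjusted by Benjamini-Hochberg over 6 comparisons. Alternatives used all mapped reads, TMM, miRNA windows, DESeq2 (version 1.42.0), no filter, single lengths, a replicate block and left-out libraries. On simulated counts for zmp-2 against WT of batch A, 187 of 200 windows changed 4-fold among 50000 were recovered with 4 false calls. The changed windows were drawn only from those with higher expected counts, at 1 fixed dispersion. This recovery therefore does not give the power for sparse chloroplast windows or for 2-fold changes. Libraries held 32815 to 236325 chloroplast reads. Named windows were the 10 with most reads and, per comparison and direction, the 3 called windows with the smallest p. Also named, outside this rule, were atpH and ndhK, at ranks 12 and 13 by reads, and the windows called alike in both NRPD1 comparisons. The windows, gene groups and tests were chosen with earlier results of these data known.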

Additional observations from a re-analysis of the deposited data

How the results depend on the processing

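Of the values recomputed under other settings, 361 kept their direction and their side of the threshold, or stayed within 1.5 times for a count, while 44 changed sign and 59 counts moved by more. Settings without the 4 windows, and library sizes from chloroplast reads, were added after seeing the data. The cause of these changes was not tested. Depth limits the windows outside the 10 with most reads, where 10 counts over a fit were the minimum. 

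Scaled by miRNA windows, the log2 difference of chloroplast levels was 0.30 in nrpd1-3 against WT, 0.15 in ZMP-YFP zmp-2 against WT and 0.20 in zmp-2 nrpd1-3 against zmp-2, all positive where the RPMR ones were negative. In RPM, ZMP-YFP zmp-2 against WT was -0.022 without the 4 windows, zmp-2 shh1-1 against zmp-2 was -0.071 on 24-nt reads alone, and the difference of the NRPD1 effects between batches was -0.30 without the 4 windows.

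Without inverted repeat windows, the difference of the 24-nt share was -1.57 points for zmp-2 and -2.25 for nrpd1-3 in batch A, -1.72 for zmp-2 in batch B, 0.56 for zmp-2 nrpd1-3 and 1.97 for zmp-2 shh1-1. Without the 4 windows it was -0.93 for zmp-2, -1.37 for nrpd1-3 and 0.18 for ZMP-YFP zmp-2 in batch A, -0.66 for zmp-2 in batch B and 1.23 for zmp-2 shh1-1. Without the 10 windows with most reads it was -0.47 for zmp-2 (batch A), 0.38 for ZMP-YFP zmp-2 and 0.34 for zmp-2 shh1-1. It was 1.14 for ZMP-YFP zmp-2 when 24 nt was set against 21 nt alone. For zmp-2 nrpd1-3 it was 3.96 without rRNA and tRNA windows, and 3.21 without windows shared with nuclear or mitochondrial sequence. Both of these settings remove only 1 of the rrn23S leader windows. Without the 4 windows the inverted repeat share differed by -0.78 points in zmp-2 (batch A), -1.61 in nrpd1-3, -1.82 in ZMP-YFP zmp-2 and 13.9 in zmp-2 nrpd1-3.

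Leaving out 1 library at a time gave log2 RPMR differences of -0.24 to 0.10 for zmp-2, -0.19 to 0.17 for nrpd1-3 and -0.26 to 0.060 for ZMP-YFP zmp-2 in batch A. The 24-nt share then differed by -3.12 to 2.32 points, -2.29 to 1.93 points and -3.83 to 2.097 points in the same order. The inverted repeat share differed by -0.21 to 0.69 points for zmp-2 and -0.44 to 2.03 for nrpd1-3 in batch A, and by -2.32 to 3.31 for zmp-2 and -1.22 to 4.40 for zmp-2 shh1-1 in batch B. Lower windows numbered 0 to 2 for zmp-2 (batch A) and 14 to 32 for zmp-2 shh1-1, and higher windows 5 to 56 for nrpd1-3 and 0 to 2 for zmp-2 (batch B).

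For nrpd1-3 against WT, lower and higher windows numbered 1 and 780 with all mapped reads, 0 and 875 with TMM, 7 and 56 with miRNA windows and 0 and 877 by DESeq2. There were 11 lower with chloroplast reads, 4 higher on 24-nt reads and 41 higher on 21-nt reads. For zmp-2 nrpd1-3 against zmp-2 the counts were 5 and 852 with all mapped reads, 4 and 825 with TMM, 22 and 491 with miRNA windows, 18 and 474 by DESeq2, and 118 and 187 with chloroplast reads, with 142 lower on 24-nt and 232 lower on 21-nt reads. For zmp-2 shh1-1 against zmp-2 they were 4 and 27 with all mapped reads, 4 and 22 with TMM, 2 and 9 by DESeq2 and 7 and 4 with chloroplast reads, with 1 higher with miRNA windows. For zmp-2 against WT of batch B, higher windows numbered 4 with all mapped reads, 2 with TMM, 16 with miRNA windows, 2 by DESeq2, 5 without the count filter and 5 on 21-nt reads, and lower windows 1 on 21-nt reads and 1 with chloroplast reads. For zmp-2 against WT of batch A there was 1 lower without the count filter, on 24-nt reads and on 21-nt reads, and 1 higher with all mapped reads. For ZMP-YFP zmp-2 there was 1 lower by DESeq2 and there were 3 without the count filter.

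Same-numbered libraries did not deviate together (correlations of -0.0347 to 0.0495), so the numbers name libraries and pair nothing. With the replicate number as a block, lower and higher windows numbered 2 and 1 for nrpd1-3 against WT and 425 and 4 for zmp-2 nrpd1-3 against zmp-2, 1 was higher in zmp-2 against WT of batch B and 35 were lower in zmp-2 shh1-1.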
